A study of Mus musculus with 8 samples.

Results

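The 6 mouse contactin genes, Cntn1 to Cntn6, held 546 of the 434365 open chromatin regions (peaks) in 3 ATAC-seq peak lists of cerebellar granule neuron progenitors. A peak was counted when it lay in the gene body of the mm10 GENCODE annotation or within 10 kb of either end, whatever its height. By this rule 189 of 152984 WT peaks, 134 of 106974 het peaks and 223 of 174407 mutant peaks belonged to the family, 0.124%, 0.125% and 0.128% of the 3 lists. ATAC-seq inserts adapters into accessible DNA with a transposase, so that tags pile up where chromatin is open.

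Contactins are cell adhesion molecules of the immunoglobulin superfamily, built of immunoglobulin and fibronectin type III domains and tied to the outer membrane leaflet by a lipid anchor. Without a cytoplasmic tail of their own they act with partners in the membrane, among them the L1 family, contactin-associated proteins and receptor tyrosine phosphatases. In the developing cerebellum Cntn2 (also called TAG-1) marks granule neurons that have left the cell cycle but not yet migrated inward, and Cntn1 (F3/contactin) appears on granule neurons as their axons grow.

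Cells came from P7 mouse cerebella, and every library carried the strain label C56Bl6/J. The groups were WT (Chd7 f/f without Cre, 3 libraries), het (Atoh1-Cre::Chd7 f/+, 2 libraries) and mutant (Atoh1-Cre::Chd7 f/f, 3 libraries). Cre was driven by the Atoh1 enhancer in the granule lineage, and the study held that it probably recombines less in the posterior lobe. Chd7 encodes a chromatin remodelling ATPase, and the lists address whether its loss alters chromatin accessibility. Pups were not separated by sex, the WT and mutant libraries were described as technical replicates, and each list had been called once after the libraries of a group were pooled. No spread between libraries could therefore be measured. Every interval given here is a 95% interval that covers counting error only, and no genotype difference was tested.

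The WT list rested on 50394313 filtered tags, the mutant list on 51030229 and the het list on 30923002. Tag size was 107 bp in WT and het but 76 bp in mutant. The part of that difference in the comparisons of WT with mutant was not tested. Tags were extended by 90 bp in WT, 88 bp in mutant and 200 bp in het, so het peaks were wider (median 378 bp, against 212 bp in WT and 198 bp in mutant). For that reason het peaks were compared by overlap and by rank within their list, not by height. The annotated starts of all 8 progenitor markers examined and all 5 markers of differentiating granule neurons, Cntn2 among them, had a peak in each list. Starts of markers of other cells were open as well, with 2 of 3 Purkinje markers, 3 of 3 astroglial markers, 2 of 2 endothelial markers and 2 of 3 oligodendrocyte lineage markers carrying a peak in each list. Of 2 interneuron progenitor markers, 2 had a peak in WT and mutant and 1 in het, and of 2 microglial markers 1 had a peak in WT alone. No list had a peak at the starts of Pcp2 (Purkinje cells), Sox10 (oligodendrocyte lineage) or Aif1 (microglia). An open start is not expression, and the part of other cells in the values below was not tested.

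Away from annotated starts, the strongest WT peak of each gene is given as the mm10 plus strand from 100 bases left to 100 bases right of its summit. Strength was ranked by −log10 q within each gene. Some peaks of other genes that are not shown were therefore stronger than the Cntn2 peak, which had a −log10 q of 15.7. The stretch around the Cntn1 upstream peak and the left peak of the Cntn6 intron 4 pair is shown because these were the only 2 shared peaks whose interval lay below WT. The whole Cntn2 upstream peak of 197 bp is shown because it was the strongest WT peak of the family without a mutant counterpart. Capitals mark matches on either strand to the E-boxes CAGCTG and CAGATG (sites of basic helix-loop-helix factors such as Atoh1 and Neurod1), the Zic core CAGCAGG and the Meis core TGACAG, some of which overlap.
Cntn1 intron 1 (chr15:92200701-92200901): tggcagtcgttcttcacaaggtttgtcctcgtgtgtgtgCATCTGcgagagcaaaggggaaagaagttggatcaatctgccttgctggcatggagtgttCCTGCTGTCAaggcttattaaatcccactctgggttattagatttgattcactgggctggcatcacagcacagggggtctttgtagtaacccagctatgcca
Cntn1 upstream (chr15:92046115-92046315): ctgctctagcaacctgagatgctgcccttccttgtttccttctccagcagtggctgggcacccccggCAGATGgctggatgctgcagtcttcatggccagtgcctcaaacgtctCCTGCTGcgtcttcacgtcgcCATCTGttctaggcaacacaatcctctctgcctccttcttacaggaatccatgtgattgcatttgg
Cntn2 intron 1 (chr1:132537890-132538090): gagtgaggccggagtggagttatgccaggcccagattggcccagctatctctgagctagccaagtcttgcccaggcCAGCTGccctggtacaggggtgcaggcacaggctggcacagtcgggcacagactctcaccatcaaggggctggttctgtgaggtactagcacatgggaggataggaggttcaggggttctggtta
Cntn2 upstream (chr1:132543778-132543974): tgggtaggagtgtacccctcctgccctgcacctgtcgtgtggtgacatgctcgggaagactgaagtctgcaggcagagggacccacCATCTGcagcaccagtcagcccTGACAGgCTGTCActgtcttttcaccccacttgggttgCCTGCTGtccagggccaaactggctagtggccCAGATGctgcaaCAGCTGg
Cntn3 intron 1 (chr6:102485532-102485732): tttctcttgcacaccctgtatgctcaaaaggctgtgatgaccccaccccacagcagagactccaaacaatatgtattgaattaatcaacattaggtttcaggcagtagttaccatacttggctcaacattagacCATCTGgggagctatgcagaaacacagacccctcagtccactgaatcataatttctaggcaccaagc
Cntn4 intron 3 (chr6:106015251-106015451): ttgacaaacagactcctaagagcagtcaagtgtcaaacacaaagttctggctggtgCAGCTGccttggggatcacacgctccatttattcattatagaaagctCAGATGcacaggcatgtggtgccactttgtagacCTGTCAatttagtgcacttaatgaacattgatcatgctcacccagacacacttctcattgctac
Cntn5 intron 2 (chr9:10618147-10618347): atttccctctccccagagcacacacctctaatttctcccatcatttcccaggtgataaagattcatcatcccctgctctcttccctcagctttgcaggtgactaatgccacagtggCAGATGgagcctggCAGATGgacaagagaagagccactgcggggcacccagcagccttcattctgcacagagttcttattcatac
Cntn6 intron 4, right (chr6:104688549-104688749): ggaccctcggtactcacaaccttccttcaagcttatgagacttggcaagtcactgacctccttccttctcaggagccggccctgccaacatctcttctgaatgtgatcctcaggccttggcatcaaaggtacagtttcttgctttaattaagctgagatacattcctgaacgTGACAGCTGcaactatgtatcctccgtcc
Cntn6 intron 4, left (chr6:104688051-104688251): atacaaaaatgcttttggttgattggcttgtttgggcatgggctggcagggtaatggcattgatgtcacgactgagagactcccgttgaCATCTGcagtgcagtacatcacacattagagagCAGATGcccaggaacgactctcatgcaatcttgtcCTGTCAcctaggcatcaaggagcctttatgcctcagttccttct

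Each of the 9 stretches held at least 1 match, and the Cntn2 upstream peak held the most, with 6. How many of all peaks hold at least 1 match was not counted, so these counts have no reference. CAGATG was found in 28.6% of the 189 family peaks within 100 bases of the summit and in 28.6% of all WT peaks. CAGCTG was found in 18.0% of family peaks and 23.6% of all, the Zic core in 12.2% of each, and the Meis core in 27.0% against 21%. In the mutant list the Meis core was found in 20.6% of family peaks and 20.3% of all, and CAGCTG in 20.2% against 23.6%. A loose CTCF core (CCANNAGNNGGC) was found in 6 family peaks, 3.17% against 6.37%. The palindromic Nuclear Factor I site (TTGGC and GCCAA separated by 5 bases) was found in 1 family peak, 0.529% against 0.0863%. Median GC content was 46.3% in the family and 51.7% over all WT peaks. Among the 10 RefSeq promoter entries of the 6 genes (GRCm38, 250 bases before to 50 after the start), CAGCTG matched both Cntn4 entries of the internal start and the Cntn6 entry, and the Zic core matched the Cntn6 entry alone. The Meis core matched 2 Cntn1 entries, the Cntn2 entry and both Cntn5 entries, and CAGATG matched 0 of the 10. Over all 32851 promoters, CAGCTG was found in 16.3%, the Zic core in 10.5%, the Meis core in 19.2% and CAGATG in 17.2%. These matches describe letters, not bound sites.

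Cntn1 and Cntn2 had the highest peak densities of the family. WT density was 9.65 per 100 kb (95% Poisson interval 6.51 to 13.8) in Cntn1 and 13.0 (5.23 to 26.8) in Cntn2. The 4 other genes lay between 3.95 in Cntn3 and 5.89 in Cntn6, with Cntn4 at 4.80 and Cntn5 at 4.91. Neighbouring values in this order could not be separated: the intervals of Cntn3 (2.30 to 6.32), Cntn4 (3.56 to 6.33), Cntn5 (3.76 to 6.29) and Cntn6 (3.73 to 8.84) overlapped, as did those of Cntn1 and Cntn2. The interval of Cntn1 lay above those of Cntn3, Cntn4 and Cntn5, while that of Cntn2 overlapped every other. Over 2492 protein-coding genes of 100 kb or more the median WT density was 7.26, with quartiles of 4.89 and 9.88. Cntn3 and Cntn4 lay below the lower quartile, Cntn5 and Cntn6 between it and the median, and Cntn1 just under the upper quartile. Among 7667 genes of 20 to 100 kb, the class of Cntn2, the median was 6.71 and the upper quartile 10.3.

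In the het list the order was Cntn2 (13.0), Cntn1 (8.37), Cntn5 (3.72), Cntn3 (3.25), Cntn4 (3.07) and Cntn6 (2.05). Cntn6 had 8 het peaks against 23 WT and 24 mutant peaks, the fewest relative to WT of the 6 genes. In the mutant list densities were 16.7 in Cntn2, 12.2 in Cntn1, 6.14 in Cntn6, 6.05 in Cntn4, 6.04 in Cntn3 and 4.98 in Cntn5. Cntn3 had 26 mutant peaks against 17 in WT and Cntn4 63 against 50, whereas Cntn5 had 63 against 62. The larger mutant total went with the longer mutant list. When each list was held to its strongest 106974 peaks, the family had 124 WT, 134 het and 118 mutant peaks, so that mutant no longer exceeded WT.

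**Figure D1:**
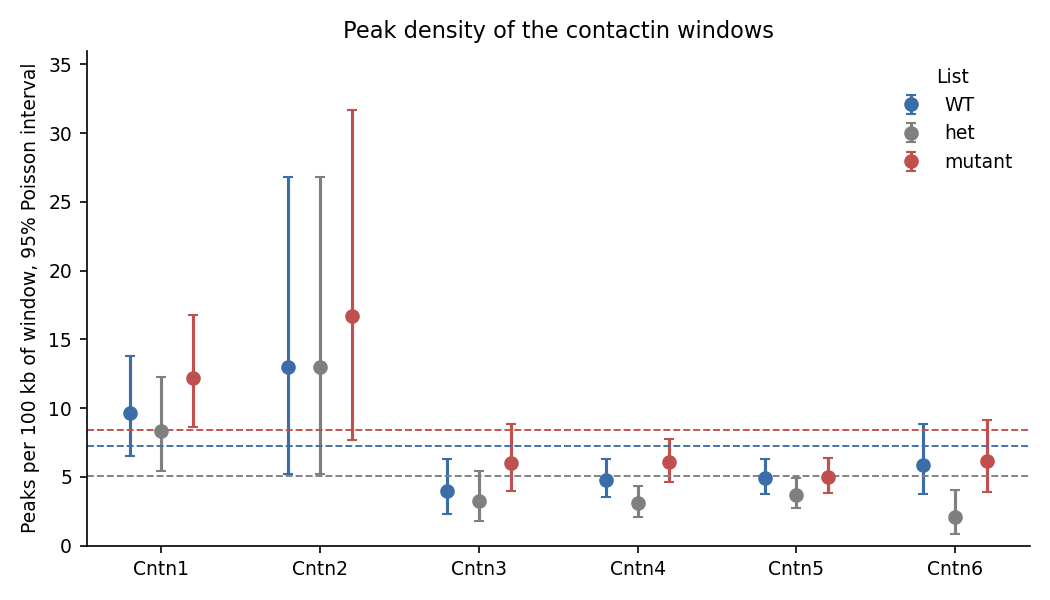
Peaks per 100 kb of window for each contactin gene in the WT, het and mutant lists, with 95% Poisson intervals. Dashed lines give the median over 2492 protein-coding genes of 100 kb or more in the list of the same colour; Cntn1 and Cntn2 lie above these lines and the 4 other genes below them.

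The genes whose densities over the 3 lists were nearest to those of each member, among 10158 protein-coding genes of 20 kb or more (Euclidean distance of log2 density plus 1), were Bicra for Cntn1, Nod2 for Cntn2, Hdac8 for Cntn3, Psmd11 for Cntn4, Mef2a for Cntn5 and Pkia for Cntn6. Distances ran from 0.0138 for Mef2a to 0.0786 for Hdac8. Likeness over 3 values among so many genes describes numbers only.

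Most contactin peaks were intronic. Introns held 168 of 189 WT peaks (88.9%), 89.6% of het peaks and 90.1% of mutant peaks. Peaks with a summit within 1 kb of an annotated transcript start made up 10 WT peaks, or 5.29%. Of 35 annotated starts of the 6 genes, 22 had such a WT peak, 22 a het peak and 23 a mutant peak. Within the genes the peaks were spread unevenly, with 16 of the 30 WT peaks of Cntn1 in its long intron 1, 9 of 17 in intron 1 of Cntn3, and 12 and 11 of 50 in introns 5 and 3 of Cntn4.

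**Figure D2:**
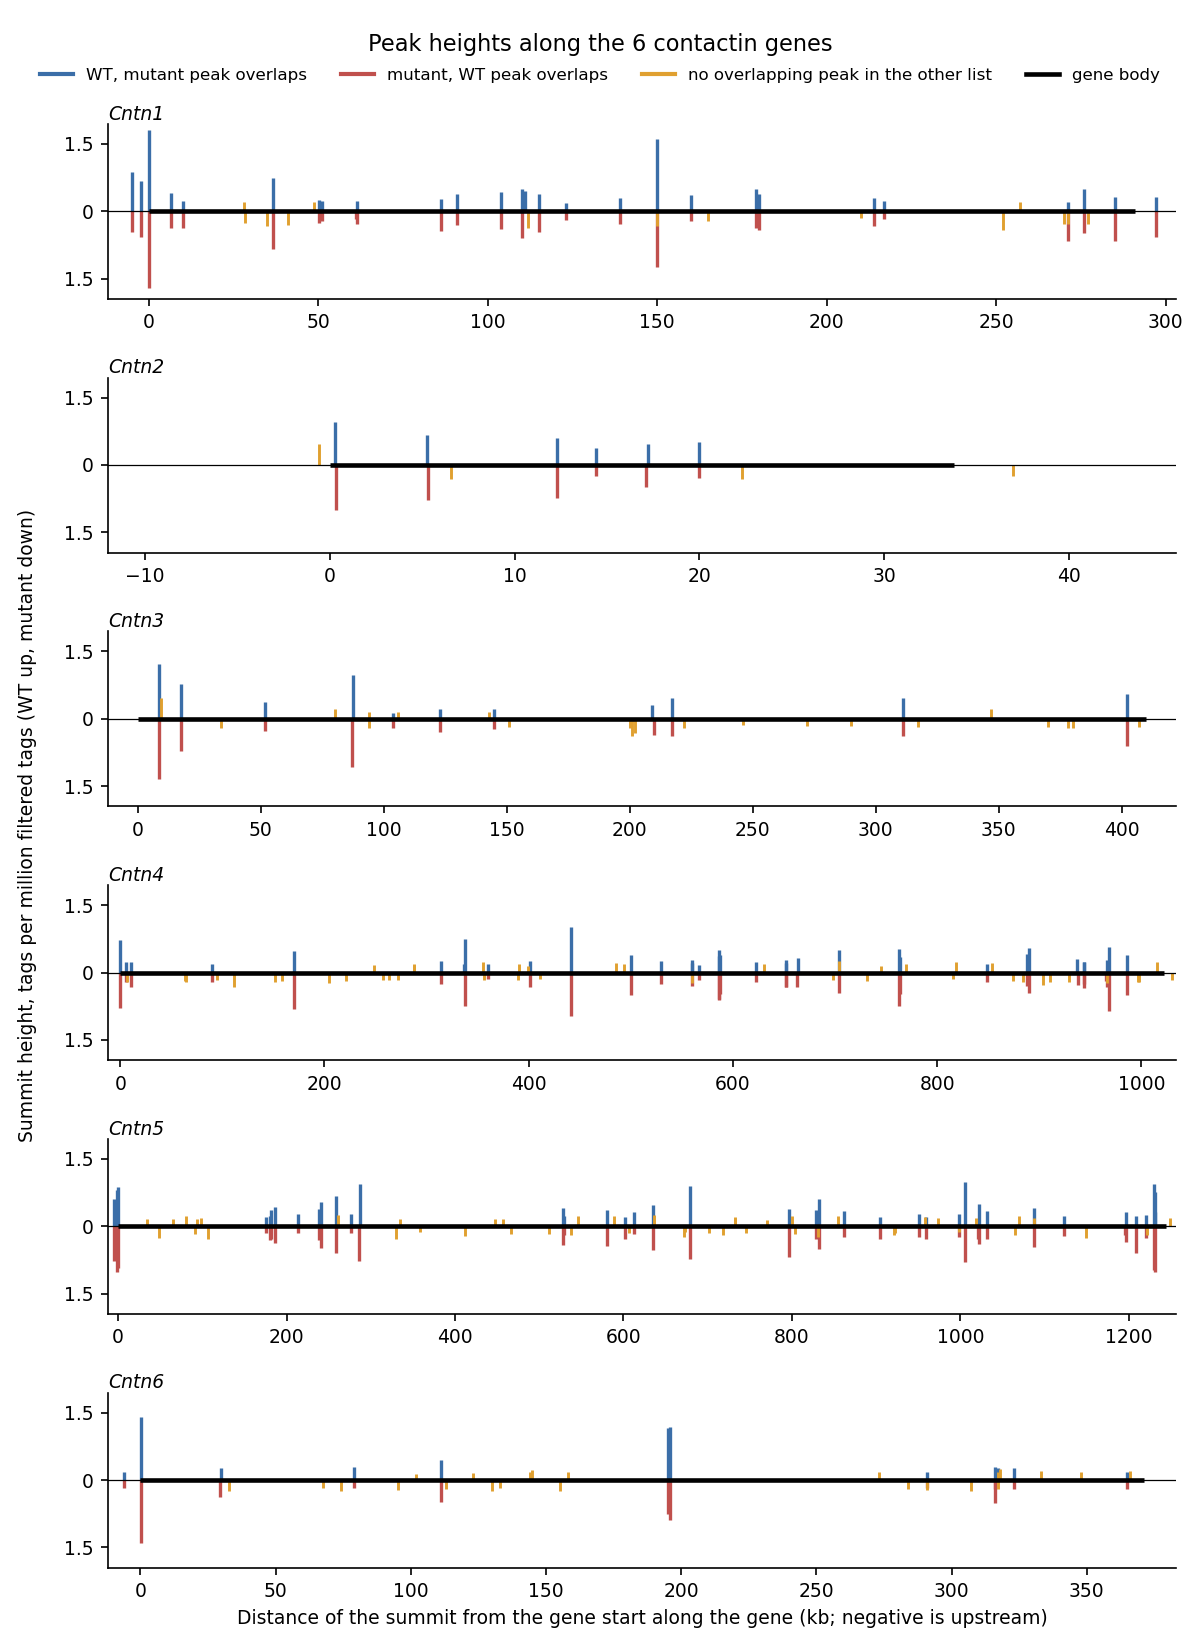
Summit heights of WT peaks (up) and mutant peaks (down) along each contactin gene, in tags per 1000000 filtered tags against distance from the gene start in kb. Orange lines are peaks with no overlapping peak in the other list; most are short, the tallest standing for 24 tags in Cntn2, and the tallest WT line stands at the gene start in Cntn1, Cntn2 and Cntn6, at an internal start in Cntn4 and in an intron in Cntn3 and Cntn5.

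Peaks present in only 1 of the 2 main genotypes were weaker by median than shared ones, although 1 mutant peak of Cntn1 and 1 WT peak each of Cntn2 and Cntn3 reached 21 to 24 tags. Of the 189 WT peaks, 59 had no overlapping mutant peak, 31.2% (95% Wilson interval 25 to 38.1), beside 22.8% of all WT peaks. Of the 223 mutant peaks, 92 had no overlapping WT peak, 41.3% (35.0 to 47.8), beside 30.7% of all mutant peaks. The unshared WT peaks had a median −log10 q of 2.97, against 8.68 for shared peaks, and 9 tags at the summit against 18. Unshared mutant peaks had a median of 10 tags and shared mutant peaks 19.

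Among the 56 WT family peaks at or above a −log10 q of 10, 0 were missing from the mutant list, which allows a share of up to 5.36%, beside 0.456% of all such WT peaks. Of the 67 mutant family peaks of that strength, 1 had no WT counterpart, beside 1.21% of all. That peak lay in intron 18 of Cntn1 (chr15:92302985-92303372), with 21 tags and a −log10 q of 13.6, and a het peak overlapped it at rank 22.6 of the het list. Ranks run from 0 for the weakest to 100 for the strongest peak of a list. The median −log10 q was 9.89 in the het list, 6.66 in WT and 6.73 in mutant. Equal ranks therefore stand for unlike strengths in het and in WT or mutant. With all lists held to equal length, 26.6% of WT and 22.9% of mutant family peaks were unshared, beside 19.6% and 18.6% of all peaks. The larger mutant share thus did not persist in equal lists. It did persist among peaks of −log10 q 5 or more in all 3 lists. There 18.1% of WT and 29.5% of mutant family peaks were unshared, beside 13.7% and 24.0% of all.

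Unshared peaks lay mostly far from any peak of the other genotype, at a median distance of 6.91 kb for WT and 7.30 kb for mutant peaks, while 5 WT and 8 mutant peaks lay within 300 bp of one. Introns held 56 of the 59 unshared WT peaks and 87 of the 92 unshared mutant peaks. At annotated starts, 1 of 10 WT peaks and 1 of 9 mutant peaks was unshared, beside 11% and 15.8% of all peaks at a start of any gene.

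By gene, WT peaks with no mutant counterpart amounted to 10% in Cntn1 (3 of 30, 3.46 to 25.6), 14.3% in Cntn2 (1 of 7, 2.57 to 51.3), 30% in Cntn4 (15 of 50, 19.1 to 43.8), 35.3% in Cntn3 (6 of 17, 17.3 to 58.7), 37.1% in Cntn5 (23 of 62, 26.2 to 49.5) and 47.8% in Cntn6 (11 of 23, 29.2 to 67.0). Intervals of Cntn5 and Cntn6 lay above the 22.8% of the whole list, and the neighbours in this order overlapped. Over 2278 genes of 100 kb or more with at least 5 WT peaks the median share was 20%, with quartiles of 12.5% and 28.6%. All 11 unshared Cntn6 peaks were weak, the strongest (chr6:104637355-104637480) having 11 tags and a −log10 q of 4.53. Of the 9 Cntn6 WT peaks at or above a −log10 q of 5, 0 were unshared, beside 5.78% of all such WT peaks. When the mutant list was held to the same strength, 3 of the 9 were unshared (33.3%, beside 13.7%).

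Mutant peaks with no WT counterpart accounted for 28.9% of Cntn1 (11 of 38), 33.3% of Cntn2 (3 of 9), 36.5% of Cntn5 (23 of 63), 44.4% of Cntn4 (28 of 63), 50% of Cntn6 (12 of 24) and 57.7% of Cntn3 (15 of 26, 38.9 to 74.5). Intervals of Cntn3, Cntn4 and Cntn6 lay above the 30.7% of the whole mutant list. In equal lists, where 18.6% of all mutant peaks were unshared, the shares were 18.2% in Cntn3 (2 of 11), 13.8% in Cntn4 (4 of 29), 20.6% in Cntn5 (7 of 34), 33.3% in Cntn1 (10 of 30) and 40% in Cntn6 (4 of 10), with 0 of 4 in Cntn2. For WT peaks, equal lists gave 42.9% in Cntn2 (3 of 7) and 40% in Cntn6 (4 of 10), beside 19.6% of all.

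**Figure D3:**
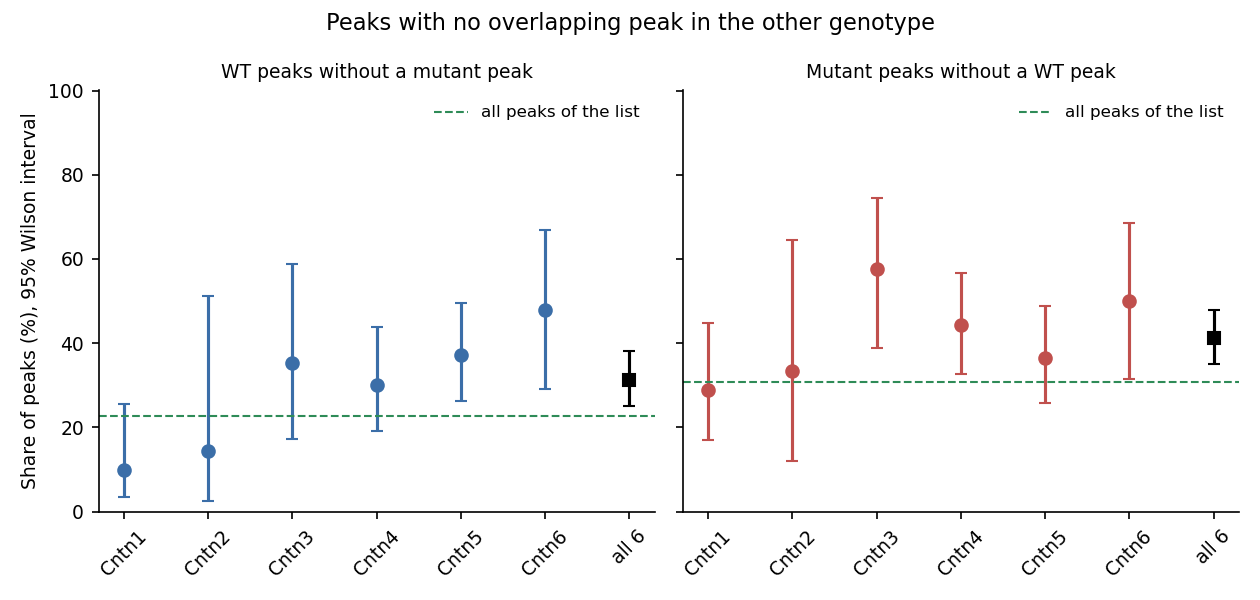
Unshared WT peaks (left) and unshared mutant peaks (right) by gene and over all 6 genes, as percent of the gene's peaks with 95% Wilson intervals. The dashed line is the share over the whole list, 22.8% and 30.7%; Cntn1 has the lowest share on both sides, Cntn6 the highest for WT peaks and Cntn3 for mutant peaks.

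The het list held a peak at 104 of 189 WT family peaks, 55.0% (47.9 to 61.9), beside 63.1% of all WT peaks, and at 108 of 223 mutant family peaks, 48.4% (42.0 to 55.0), beside 58.7% of all. In the other direction, 99 of 134 het family peaks overlapped a WT peak (73.9%, beside 86.7% of all) and 102 overlapped a mutant peak (76.1%, beside 89.3%). The WT share with a het peak ran from 30.4% in Cntn6 (7 of 23) to 85.7% in Cntn2 (6 of 7). Of the 59 unshared WT peaks, 6 overlapped a het peak (beside 13.2% of all such peaks), 4 of them in Cntn5. Of the 92 unshared mutant peaks, 10 did so (beside 15.2%).

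Joined over the 3 lists at a distance of up to 300 bp, the family's peaks formed 277 regions. All 3 lists contributed to 92 of them (33.2%, against 45.7% over all regions of the series), only WT to 45 (16.2% against 13.3%), only mutant to 73 (26.4% against 20.1%) and only het to 20 (7.22% against 3.52%). Regions of all 3 lists were most frequent in Cntn2 (6 of 11) and Cntn1 (21 of 40) and least in Cntn6 (7 of 32).

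At peaks of both genotypes the median height difference was small against counting error. Over the 130 WT family peaks with a mutant partner (126 distinct mutant peaks), the median log2 difference of summit height per 1000000 tags, mutant minus WT, was 0.07 (−0.02 to 0.15), beside 0.08 over all 118098 shared peaks. Mutant was lower at 61 of the 130 peaks (46.9%, beside 42.4% of all). None was 2-fold lower, which allows up to 2.31%, beside 0.411% of all. Of the 130, 5 were 2-fold higher, a larger share than the 1.31% of all. For single peaks the interval of the tag ratio lay below 0 at 2 of 130 peaks (beside 0.514% of all shared peaks) and above 0 at 6 of 130 (beside 1.43%). Both counts were larger shares than those over all shared peaks. These intervals were not adjusted for the number of peaks compared.

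The 5 peaks that were 2-fold higher were weak in WT, with 10 to 16 tags. For 2 of them, in Cntn4 (chr6:106014889-106014987, 10 tags) and Cntn5 (chr9:9673784-9673948, 16 tags), the mutant partner also overlapped a taller neighbouring WT peak. The neighbours had 38 and 39 WT tags against 38 and 52 mutant tags, differences of −0.02 and 0.40. The others each had a mutant partner of their own. At chr15:92322281-92322449 in Cntn1, WT had 10 tags and mutant 34, a difference of 1.75 (0.70 to 2.93). At chr15:92335638-92335981 in the same gene the values were 16 and 34 tags (1.07, 0.17 to 2.03), and at chr9:9696699-9696914 in Cntn5 they were 12 and 31 (1.35, 0.35 to 2.45). These lay towards the 3′ end of their gene, and a het peak overlapped each. When each of the 131 shared mutant peaks was instead set against its tallest WT partner, 3 were 2-fold higher (beside 0.698% of all) and 1 was 2-fold lower (beside 1.75%).

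**Figure D4:**
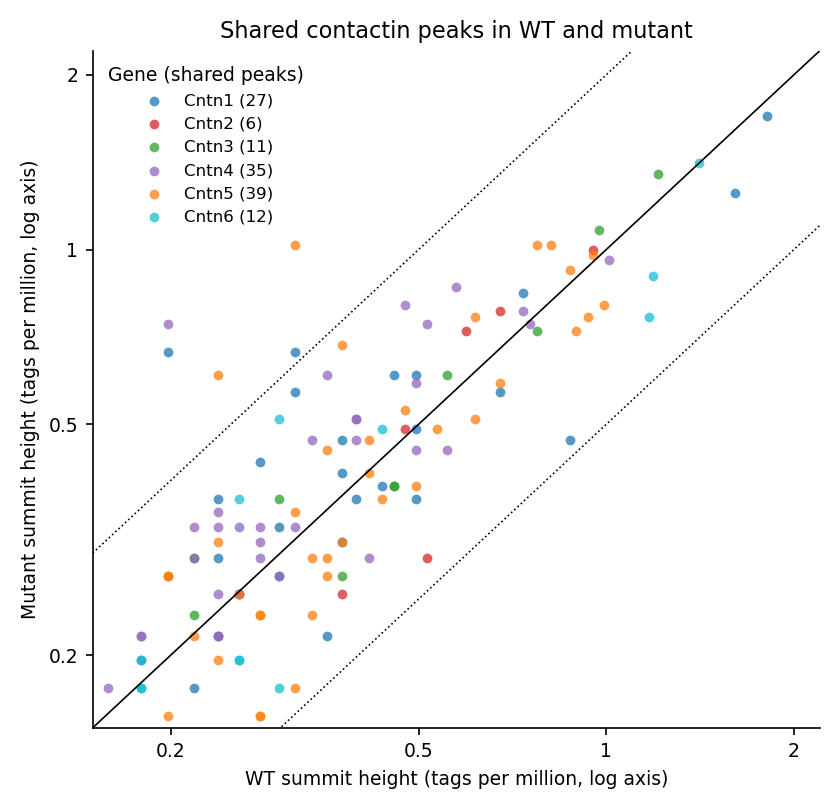
Summit height in WT against mutant for the 130 shared contactin peaks, in tags per 1000000 filtered tags on log axes, coloured by gene. The solid line marks equal heights and the dotted lines a 2-fold difference; 5 points lie above the upper dotted line, all of them low in WT, and none lies below the lower.

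Gene medians of the height difference straddled 0. They were −0.13 in Cntn5 (−0.27 to 0.15, 39 peaks), −0.02 in Cntn1 (−0.16 to 0.30, 27 peaks), −0.02 in Cntn6 (−0.40 to 0.17, 12 peaks), 0.06 in Cntn2 (6 peaks), 0.13 in Cntn3 (−0.22 to 0.43, 11 peaks) and 0.24 in Cntn4 (0.07 to 0.36, 35 peaks). In Cntn4, 24 of 35 shared peaks were higher in mutant, and in Cntn5, 23 of 39 were lower. Cntn4 was the only member whose interval excluded 0, and it did not exclude the 0.08 of all shared peaks. Its median was 0.15 (−0.02 to 0.27) when peaks were paired from the mutant side. Over 2047 genes of 100 kb or more with at least 6 shared peaks the median was 0.08, with quartiles of −0.02 and 0.16, and 4.25% of these genes lay below Cntn5 and 90.8% below Cntn4.

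**Figure D5:**
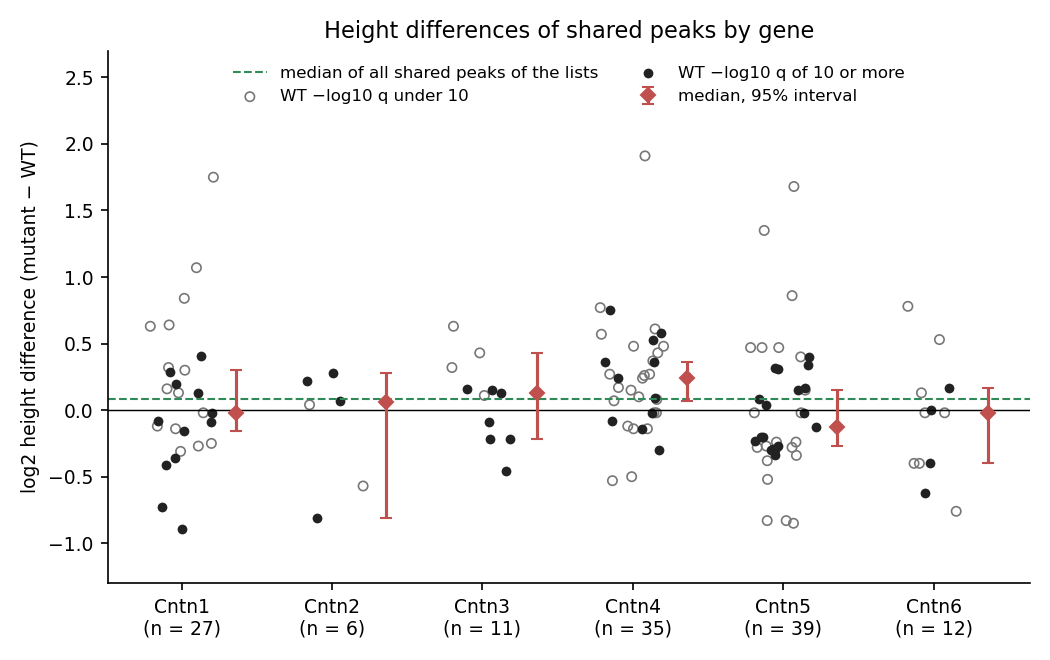
Log2 difference of summit height (mutant minus WT) at each shared peak by gene, with the gene median and its 95% interval as a red diamond. Filled points are peaks at or above a WT −log10 q of 10, all between −0.89 and 0.75; the dashed line is the median of all shared peaks, 0.08.

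Cntn2, the premigratory granule neuron marker, spans 33.8 kb on the minus strand of chromosome 1 (132509427 to 132543256, ENSMUSG00000053024.14). Its main start peak (chr1:132542739-132543193) had 48 tags in WT and 51 in mutant, a difference of 0.07 (−0.53 to 0.67), and ranked 88.4, 88.8 and 90.9 in the WT, het and mutant lists. The start was thus among the peaks of high rank in all 3 lists. A second WT peak 574 bp upstream of the outermost start (chr1:132543778-132543974) had 24 tags, was 4.74-fold enriched and reached a −log10 q of 8.84 (rank 59.5). No het peak lay within 566 bp of it and no mutant peak within 630 bp. A peak absent from a list is one that did not pass the caller's threshold, and the lists give no tag count for it.

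Inside Cntn2, 5 further WT peaks each had a mutant and a het partner. The intron 1 peak had 34 tags in WT and 40 in mutant (0.22, −0.48 to 0.92), and the intron 2 peak 30 and 37 (0.28, −0.45 to 1.03). Another, 17.2 kb from the start, had 24 and 25 (0.04). The other two were lower in mutant by point value: a peak in a non-coding exon had 19 and 13 tags (−0.57, −1.71 to 0.53), and a peak at an internal start of a transcript subject to nonsense-mediated decay (chr1:132523195-132523359) had 26 and 15 (−0.81, −1.83 to 0.16). The last ranked 65.1, 41.5 and 21.2 in the WT, het and mutant lists, at a −log10 q of 10.6, 7.94 and 3.74. The intervals of both lower peaks included 0, and the het −log10 q came from other calling settings. The 3 mutant peaks without a WT peak had 13 to 16 tags, and 1 of them lay at the start of the neighbouring gene Tmem81.

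Cntn1 covers 291 kb of the plus strand of chromosome 15 (92051165 to 92341967, ENSMUSG00000055022.14). Its start peak (chr15:92050891-92052358), the tallest of the family, had 91 tags in WT and 87 in mutant (−0.08, −0.52 to 0.36) and ranked 98.2 and 97.9. In intron 1, 150 kb from the start, stood the peak with the highest −log10 q of the WT family, 67.5 (chr15:92200296-92201080). It had 81 tags in WT and 64 in mutant (−0.36, −0.85 to 0.13), and ranked 99.5, 98.6 and 97.7 in WT, het and mutant. The peak 4.95 kb upstream of the start (chr15:92046098-92046372) had 44 tags in WT and 24 in mutant. Its difference of −0.89 (−1.67 to −0.14) was the lowest of the family, and the interval was not adjusted for that choice. This upstream peak ranked 85.0, 68.8 and 61.3 in the WT, het and mutant lists, at a −log10 q of 23.5, 18.2 and 9.24. The het list was called with other settings, so its −log10 q is not comparable with those of WT and mutant. The internal start at 92161357 had a pair of WT peaks of 25 and 23 tags that were a single peak of 31 tags in mutant and a single peak in het, and the annotated start at 92128188 had no peak in any list.

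Cntn6 (NB-3) covers 371 kb of the plus strand of chromosome 6 (104492790 to 104863406, ENSMUSG00000030092.14). The start peak (chr6:104492780-104493606) had 71 tags in WT and 72 in mutant, a difference of 0.00 (−0.49 to 0.50), and ranked 98.5, 97.7 and 98.8 in WT, het and mutant. In intron 4, about 195 kb from the start, a pair of neighbouring WT peaks were the tallest of the rest of the gene. The left peak (chr6:104688007-104688303) had 59 tags in WT and 39 in mutant (−0.62, −1.24 to −0.01). The right peak (chr6:104688449-104689059) had 60 and 46 (−0.40, −0.99 to 0.18). Both were lower in mutant by point value, and a single het peak at rank 89.7 overlapped both, beside ranks of 94.4 and 94.8 in WT and 85.5 and 90.5 in mutant. The only other Cntn6 peak away from the start with a WT −log10 q above 10, in intron 2, had 22 and 25 tags (0.17, −0.72 to 1.06).

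Cntn4 covers 1022 kb of the plus strand of chromosome 6 (105677660 to 106699310, ENSMUSG00000064293.14). Its outer start (chr6:105677106-105678200), which it shares with the lincRNA gene Gm15631 on the other strand, had 37 tags in WT and 40 in mutant (0.09, −0.59 to 0.78). The internal start 441 kb further in (chr6:106118459-106119207) had 51 and 49 (−0.08, −0.67 to 0.52) and was the taller of both starts in each list. The strongest peak away from a start, in intron 3, had 38 tags in both lists (−0.02). Among its 11 peaks at or above a −log10 q of 10, differences ran from −0.30 to 0.75, and 7 were higher in mutant. The highest, in intron 2 (chr6:105847355-105847682), had 24 and 41 tags (0.75, −0.01 to 1.55) and ranked 76.7, 69.3 and 92.7 in the WT, het and mutant lists.

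Cntn5 (NB-2) is the longest member, with 1244 kb on the minus strand of chromosome 9 (9660891 to 10904775, ENSMUSG00000039488.15). Its start peak (chr9:10904427-10905259), whose summit lay within 1 kb of the start of the antisense gene Gm32710, had 44 tags in WT and 47 in mutant (0.08, −0.55 to 0.70) and ranked 86.4, 86.3 and 86.9 in WT, het and mutant. The 2 peaks just upstream had 41 and 31 tags in WT against 52 and 39 in mutant (0.32 and 0.31). The strongest peaks in introns 2, 3, 13 and 21 had 47 against 39 tags (−0.29, −0.94 to 0.36), 45 against 37 (−0.30), 50 against 41 (−0.30) and 48 against 50 (0.04). Differences of its 18 peaks at or above a −log10 q of 10 ran from −0.34 to 0.40. The lowest, in intron 13 (chr9:9882904-9883510), had 25 against 20 tags (−0.34, −1.26 to 0.57). The highest, in intron 22 (chr9:9673252-9673627), had 39 against 52 (0.40, −0.23 to 1.03).

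Cntn3 (BIG-1) covers 410 kb of the minus strand of chromosome 6 (102162655 to 102573101, ENSMUSG00000030075.10) and differed from the other members in having no WT or het peak at any of its 3 annotated starts. A mutant peak of 9 tags (−log10 q of 3.04) lay at the start of a retained-intron transcript near its 3′ end. The tallest peak was in intron 1, 8.60 kb inside the outermost start (chr6:102563997-102564855), with 61 tags in WT and 69 in mutant (0.16, −0.36 to 0.68) and ranks of 94.1, 94.7 and 96.5 in WT, het and mutant. A weaker WT peak of 23 tags beside it had no mutant partner, but this tall mutant peak lay 144 bp away. The intron 1 peak at chr6:102485406-102486055, 87.5 kb from the start, had 49 and 55 tags (0.15, −0.43 to 0.73). The 7 Cntn3 peaks at or above a −log10 q of 10 differed by −0.46 to 0.16.

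Genes for partners of contactins, members of the partners' families and other pathway genes were set beside the contactin family. Over 20 such genes, 136 of 558 WT peaks had no mutant peak, 24.4% (21 to 28.1), near the 22.8% of the whole list. Of their 422 shared peaks 1 was 2-fold lower (beside 0.411% of all shared peaks) and 3 were 2-fold higher (beside 1.31%). The L1 family (L1cam, Chl1, Nrcam and Nfasc), adhesion molecules that bind contactins on axons, had 15 of 86 unshared (17.4%, 10.9 to 26.8), and the receptor phosphatases Ptprz1, Ptprg and Ptpra had 16 of 89 (18.0%). The 7 contactin-associated protein genes, which include partners of Cntn1 and Cntn2 in the regions flanking nodes of Ranvier, had 84 of 237 (35.4%, 29.6 to 41.7). Within that group the share was 33.8% in Cntnap2 (45 of 133) and 50% in Cntnap5a (13 of 26), and no peak of Cntnap1 (0 of 8) was unshared. The amyloid precursor family had 9 of 46 (19.6%), and Notch1, Tnr and Fyn together 12 of 100 (12%). The contactin family's 31.2% (25 to 38.1) lay between the point values of the contactin-associated protein genes and the L1 family, and its interval overlapped both of theirs.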

How the data were processed

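ATAC-seq was done on 8 libraries of P7 granule neuron progenitors, and 3 deposited peak lists, 1 for each genotype, were analysed. Per the labels, the authors trimmed reads with Trim Galore 0.4.1, aligned them to mm10 (STAR 2.5.0b and Bowtie 1.0.0 are named), marked duplicates with Picard 1.139 and called peaks with MACS2 2.1.0.20150731. Per the file headers, WT and mutant peaks were called with model-based tag extension and het peaks with a fixed extension and shift, on the pooled libraries of a group, at a q threshold of 0.05. The deposited columns used were the summit pileup (a coverage signal in tags), the fold enrichment (a ratio to the local background), and the −log10 q-value.

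Peaks were assigned to genes with GENCODE M21 and read against the GRCm38 sequence. Height was the pileup per 1000000 filtered tags. A peak was shared if it overlapped a peak of the other list by 1 bp or more, and each WT peak was set against its tallest mutant partner. Shares have Wilson intervals, densities exact Poisson intervals, medians binomial order-statistic intervals and single peaks an exact conditional binomial interval of the tag ratio. Where 0 peaks were found, the share said to be allowed is 3 over the number of peaks tested, not a Wilson limit. No test between genotypes was made, because replicates had been pooled before deposit. By plan, the named peaks of each gene were those at starts, the strongest away from starts and the strongest unshared ones. The lowest and highest difference among peaks at or above a −log10 q of 10 were also planned. Not all planned peaks are described. Further peaks that were 2-fold different, the remaining Cntn2 peaks and the Cntn5 upstream and strongest intronic peaks were added after their values were seen. The members, gene lists and motifs were chosen with earlier results of these data known. Overlap and interval code was tested on simulated data. Python 3.11.15 with scipy 1.17.1 was used.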

Additional observations from a re-analysis of the deposited data

How the results depend on the processing

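No value between libraries could be tried, since a pooled list offers no replicate to leave out. No paired analysis was possible because each list was called on pooled libraries and its columns carry no replicate number. With peaks of −log10 q 5 or more in all 3 lists, the family had 105 WT and 122 mutant peaks, of which 18.1% and 29.5% were unshared and 73.3% and 67.2% had a het peak. With equal lists, it had 124 WT and 118 mutant peaks, 22.9% of mutant peaks were unshared, and 73.4% of WT and 75.4% of mutant peaks had a het peak. Under 50% reciprocal overlap, 46.0% of WT and 54.3% of mutant peaks were unshared, and 42.9% and 37.2% had a het peak. For query peaks of −log10 q 5 or more against complete lists, 6.67% and 19.7% were unshared, and 79.0% and 73.8% had a het peak. Over all peaks the same shares moved in the same direction; unshared WT peaks, for example, made up 13.7%, 19.6%, 35.9% and 5.78% under these 4 settings. The median height difference was −0.01 when centred on all shared peaks, −0.02 for peaks of −log10 q 10 or more and −0.02 when paired from the mutant side (added after the data were seen); as a change of within-list rank it was 2.40 points, beside 2.28 over all shared peaks. Other windows, a 300 bp distance, fold enrichment and partners by most overlapping bases left the values inside their intervals, except that with the gene body alone Cntn2 had 0 of 6 unshared WT peaks, since its unshared peak lies upstream. Unshared WT peaks had a median of 9 tags at the summit, against 18 for shared ones, and the part of depth and of the calling threshold in the unshared shares was not tested.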
